A study of Mus musculus with 9 samples.

Results

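The nuclear factor I (NFI) family consists of the genes Nfia, Nfib, Nfic and Nfix, and all 4 were found among 21883 protein-coding mouse genes. The cells are endothelial cells that line lung vessels, taken by flow sorting from mice at 3 ages, infant, young adult and mature adult, with 3 libraries each. ATAC-seq marks accessible chromatin by letting a transposase insert adapters into exposed DNA, and the deposited lists hold the stretches called open, or peaks, of each library. All groups share tissue and sort. The labels state no age in days, strain or sex, and leave unsaid whether the libraries of an age are separate animals, so the spread given here is that between libraries and may be technical. The series concerns the chromatin of endothelium that is growing vessels in infancy and resting later in life. The genes were chosen by family name after the numbers, positions and widths of their peaks at the 3 ages were known. Those measures are therefore given as a description, without a test.

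NFI proteins are transcription factors that bind DNA as dimers through a conserved N-terminal domain. Their preferred site is a palindrome of TTGGC and GCCAA held 5 bases apart, and they act as activators or repressors depending on the gene. Nfib is needed for the lung to mature before birth, and mice without it die as newborns with immature lungs. Nfia is known from the switch of neural precursors to glia, Nfic from the growth of tooth roots, and Nfix from the switch from embryonic to fetal muscle genes. In the developing lung NFI genes are active in epithelium and mesenchyme, cells that a sort for endothelium is meant to leave out.

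The genes differ greatly in length. Nfia spans 541 kb on chromosome 4, from 97578066 to 98118876 (mm10), and Nfib spans 217 kb of the same chromosome, from 82290173 to 82506751. Nfix spans 96.5 kb on chromosome 8, from 84704712 to 84801238, and Nfic 35.7 kb on chromosome 10, from 81396191 to 81431919. Peaks were assigned by their centre, to a gene body that contained it or else to the closest gene end up to 100 kb away. By this rule 8 of the 21883 genes had more peaks per library than Nfib, and 67 had more than Nfia. The lower end of Nfix, which is its 3′ end, lies 5 bp before the end of its neighbour Lyl1, so the region across that border may belong to either gene.

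RefSeq start windows of assembly GRCm38.p6 were at hand for Nfia, Nfic and Nfix. Of all 32851 start windows in that table, which reach from 250 bases before to 50 after a start, 47.6% overlapped a region with a peak in some library. None of the 6 windows of the NFI genes did. All 6 lie inside the gene bodies, and regions found in all libraries had their centres 642 bp from the outer 5′ end of Nfix and 1206 bp from that of Nfic, so the windows do not stand for every start of these genes. The 250 upstream bases of 3 of them are shown, since they are stretches at annotated starts of NFI genes where no library had a peak. Capitals mark TTGGC or its reverse complement GCCAA, the arms of the NFI palindrome.
Nfia, chr4:97581693-97581942, plus strand: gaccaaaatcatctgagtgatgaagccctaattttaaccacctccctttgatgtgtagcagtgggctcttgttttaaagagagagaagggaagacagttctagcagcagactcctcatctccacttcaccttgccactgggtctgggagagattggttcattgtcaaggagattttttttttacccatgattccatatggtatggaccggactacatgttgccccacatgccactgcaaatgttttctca
Nfic, chr10:81427174-81427423, minus strand: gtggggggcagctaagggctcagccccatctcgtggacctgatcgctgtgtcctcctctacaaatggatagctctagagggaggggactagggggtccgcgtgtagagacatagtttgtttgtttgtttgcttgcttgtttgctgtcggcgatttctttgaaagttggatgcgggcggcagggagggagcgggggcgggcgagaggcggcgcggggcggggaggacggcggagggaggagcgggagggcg
Nfix, chr8:84775829-84776078, minus strand: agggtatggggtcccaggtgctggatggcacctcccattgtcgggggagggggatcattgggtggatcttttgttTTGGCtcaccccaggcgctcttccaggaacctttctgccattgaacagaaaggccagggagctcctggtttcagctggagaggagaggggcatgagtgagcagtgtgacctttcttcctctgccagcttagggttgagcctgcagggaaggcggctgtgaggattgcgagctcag

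The Nfix stretch holds TTGGC once, at base 76, and its window ends 274 bp from a region that was open in all 9 libraries. The Nfic window lay 2086 bp and the Nfia window 16439 bp from the nearest region of any library. Both strands were searched, and 41.5% of the 32851 upstream stretches held TTGGC or GCCAA, while 12 of them held the whole palindrome. Of the 6 NFI stretches, 2 held an arm and none the whole palindrome. These are matches of letters and no measure of binding.

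Of the 4 genes, Nfia had the largest difference in peak number between the ages. Infant lists gave Nfia 58, 58 and 57 peaks, those of young adults 34, 34 and 29, and those of mature adults 24, 31 and 29. Every adult library lay below every infant library, and the adult ages overlapped. The mean was 28.0 ± 3.61 peaks in mature adult and 57.7 ± 0.577 in infant libraries (SD, n = 3 each), a ratio of 0.486. Young adult libraries had 32.3 ± 2.89 peaks, a ratio of 0.561 to infant. Both ratios use the same infant libraries.

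Nfix was lower by a similar ratio from fewer peaks. Infant lists gave Nfix 25, 24 and 20 peaks, those of young adults 14, 16 and 10, and those of mature adults 10, 12 and 12. No adult library reached the lowest infant library, and the adult ages overlapped. The mean was 11.3 ± 1.15 in mature adult and 23.0 ± 2.65 in infant libraries, a ratio of 0.493, and young adult libraries had 13.3 ± 3.06 peaks.

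Nfib, the member with the most peaks, differed less. Infant lists gave Nfib 68, 63 and 71 peaks, those of young adults 56, 52 and 50, and those of mature adults 46, 57 and 53. The adult libraries again lay below the infant ones, with 52.0 ± 5.57 peaks in mature adult and 67.3 ± 4.04 in infant libraries, a ratio of 0.772, and 52.7 ± 3.06 in young adult libraries.

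Nfic had about the same number at each age. Infant lists gave Nfic 17, 14 and 16 peaks, those of young adults 16, 15 and 18, and those of mature adults 13, 17 and 16. All 3 groups overlapped, and the mature adult mean of 15.3 ± 2.08 was 0.979 of the infant mean of 15.7 ± 1.53.

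**Figure D1:**
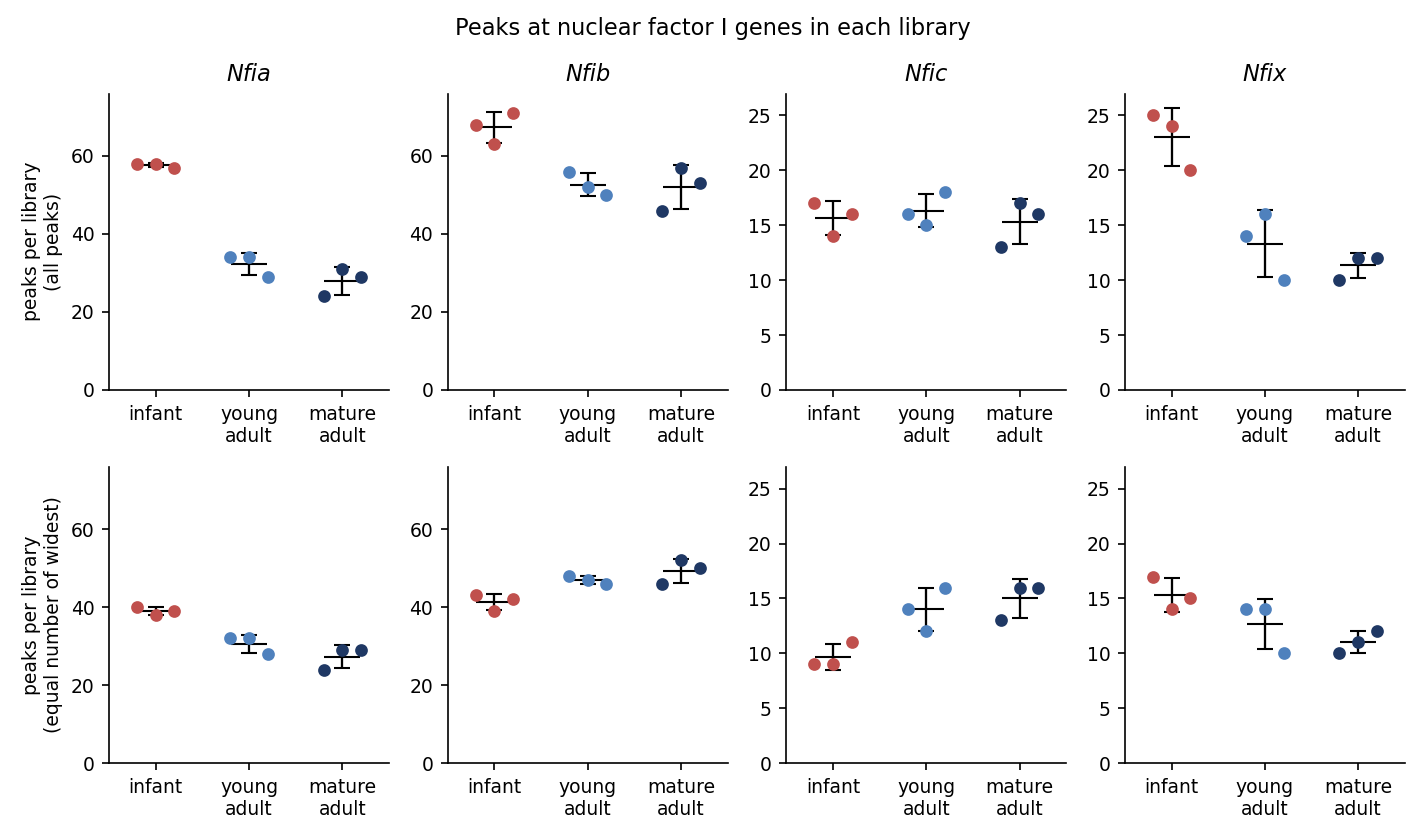
Number of peaks at each NFI gene (vertical axis) in the 3 libraries of each age (horizontal axis), counted over all peaks (upper row) and over the 59793 widest peaks of every library (lower row). Points are libraries, and bars show mean and SD. Nfia is lower in all adult than in all infant libraries in both rows, whereas Nfib is lower in adults in the upper row and higher in the lower row.

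These numbers have to be read beside the length of the lists. Infant libraries held between 88856 and 94646 peaks, young adult libraries between 67550 and 68366 and mature adult libraries between 59793 and 64208, and the sequencing depth is unknown. Genes with many peaks mostly had fewer in adults. The number at 3 of the 4 NFI genes was lower in every mature adult than in every infant library, while 35.7% of 14441 genes averaging 1 peak or more, and 59.7% of the 1500 averaging 10 or more, were also lower without overlap. The same 3 genes were lower without overlap in young adult libraries, against 27.5% and 50.9% of these genes. In bulk lists of peaks, fewer cells with an open region and a weaker opening in each cell cannot be told apart.

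Set against the library's total, the family split in direction. Nfia had 4.48 ± 0.419 peaks per 10000 in mature adult and 6.33 ± 0.174 in infant libraries, and Nfix 1.81 ± 0.124 in mature adult and 2.52 ± 0.233 in infant libraries, both without overlap. On this scale 21.7% of genes averaging 1 peak or more were lower in mature adults without overlap. Nfic had 2.45 ± 0.247 per 10000 in mature adult and 1.72 ± 0.141 in infant libraries, higher without overlap, as were 36.7% of genes. Its number of peaks was nearly equal at the ages, while the adult lists were shorter. Nfib had 8.32 ± 0.596 per 10000 in mature adult and 7.39 ± 0.528 in infant libraries, and the ages overlapped.

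Young adult libraries stood on the same side of infant ones on that scale. They had 4.76 ± 0.404 peaks per 10000 at Nfia and 2.41 ± 0.239 at Nfic, each without overlap with infant libraries, as in 17.6% of genes for lower and 35.3% for higher values. Nfix had 1.96 ± 0.439 and Nfib 7.75 ± 0.445 per 10000 in young adult libraries, and both overlapped with infant. Between mature and young adult libraries all NFI genes overlapped, while 4.40% of genes were lower and 0.616% higher without overlap in number, and 4.01% lower and 33.9% higher per 10000. At Nfia and Nfix this overlap rested on young adult replicate 3 alone, in number and per 10000. That library had 29 peaks at Nfia and 10 at Nfix, and the lowest median peak width of all libraries, 396 bp. Nfib and Nfic overlapped without it as well. The share of all genes without this library was not counted. Nfia had 28.0 in mature against 32.3 peaks in young adult libraries, and Nfix 11.3 against 13.3. Summed over the family, 18.0 ± 0.437 of 10000 peaks in infant, 16.9 ± 0.945 in young adult and 17.1 ± 1.37 in mature adult libraries lay at NFI genes.

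With an equal number of the widest peaks taken from every library, the split remained for Nfia. Its numbers were 40, 38 and 39 in infant, 32, 32 and 28 in young adult and 24, 29 and 29 in mature adult libraries. Nfix kept lower mature adult numbers, 10, 11 and 12 against 17, 14 and 15 in infant libraries, while young adult libraries, with 14, 14 and 10, overlapped with infant. Nfib turned to higher numbers in adults, with 46, 52 and 50 in mature adult against 43, 39 and 42 in infant libraries. Nfic had 13, 16 and 16 in mature adult against 9, 9 and 11 in infant libraries. This setting drops narrow peaks and makes the lists equally long. The 59793 peaks kept equal the length of the shortest list, that of mature adult replicate 1, which lost none. Infant lists, the longest, lost the most, so a peak width dropped there could be kept in an adult list. How much this unequal cut adds to the higher adult numbers at Nfib and Nfic was not tested. Per 10000 peaks, with all peaks counted, the Nfib mean was also higher in adults. The share of all genes without overlap in this setting was not counted, so these differences have no background here.

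Over the 1500 genes averaging 10 peaks or more, the median ratio of mature adult to infant numbers was 0.767. Nfia and Nfix lay in the lower part of that distribution, with 166 and 177 genes below them. Nfib lay at its middle, with 763 genes below, and Nfic in the upper part, with 1275 below. The order of the ratios was Nfia, Nfix, Nfib and Nfic, and the ratios of Nfia and Nfix differed by less than the spread between libraries.

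**Figure D2:**
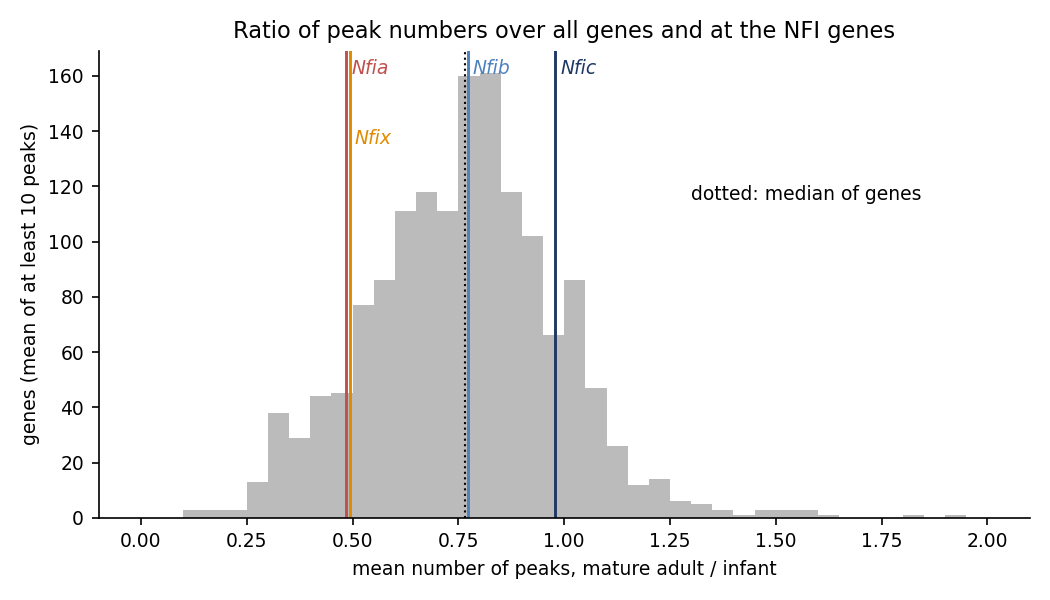
Histogram of the ratio of the mean number of peaks in mature adult to that in infant libraries (horizontal axis) for 1500 genes averaging 10 peaks or more (vertical axis: number of genes). Coloured lines mark the NFI genes, at 0.486 (Nfia), 0.493 (Nfix), 0.772 (Nfib) and 0.979 (Nfic), and the dotted line marks the median of 0.767.

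Per length of gene body, Nfic was the most densely covered member and Nfia the least at each age. Nfic held 30.8 ± 4.85 peaks per 100 kb in infant, 31.7 ± 4.28 in young adult and 30.8 ± 2.80 in mature adult libraries. Nfia held 10.1 ± 0.107, 5.79 ± 0.534 and 4.93 ± 0.770 at these ages. Nfib and Nfix had nearly the same infant density, 22.6 ± 0.462 and 23.8 ± 2.74 per 100 kb, and did not differ beyond their spread. In mature adult libraries Nfib had 17.7 ± 2.18 and Nfix 11.7 ± 1.20 per 100 kb, and their libraries did not overlap.

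Merging overlapping peaks of all libraries gave 210 regions at the NFI genes, of 126907 regions in all. A region was counted in a library when at least 1 bp of a peak lay in it. At the family 77 regions were found in all 9 libraries, 21 in all 3 infant and no adult library, and 1 in all 6 adult and no infant library. The infant regions made up 10.0% of the family's regions, and 9.70% of all regions, and the adult region 0.476%, against 0.686% of all regions. The family as a whole was thus close to the background, and the infant regions were spread unevenly over its members.

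Nfia held 13 of the 21 infant regions and Nfix 5, which was 17.8% of the 73 regions at Nfia and 19.2% of the 26 at Nfix. Nfib held 3 among 93 regions, or 3.23%, and Nfic none among 18. Only 6 genes held more infant regions than Nfia. Among 3225 genes with at least 10 regions, 660 had a higher share than Nfia and 560 a higher share than Nfix, so neither share was extreme. With an equal number of widest peaks 8 infant regions were left at Nfia and 1 at Nfix, while 4862 of such regions stood against 12315 in the whole series, so the number at Nfix fell away under this setting. A further 10 of the family's 210 regions were found in all infant and some young adult libraries but in no mature adult library. Of these, 5 lay at Nfia, 3 at Nfib and 2 at Nfix. Over the whole series 5979 of 126907 regions were of this kind, a similar share.

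The infant regions at Nfia gathered in the part of the gene towards its annotated start. Nfia is transcribed from lower to higher coordinates. The nearest infant region lay 23439 bp from the lower end, and no region of any library lay closer inside the gene. The first region inside the gene that was found in all libraries lay 117 kb from that end. Of 34 regions between the lower end and the midpoint of the gene, 9 were infant regions and 5 were found in all libraries. Of 35 regions beyond the midpoint, 2 were infant regions and 15 were found in all libraries, 5 of these within the last 54.1 kb. The other 2 infant regions lay beyond the upper end of the gene, at 7129 and 82162 bp from it.

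Of the infant regions at Nfia, the one ranking highest in peak width lay at 97611180 to 97611951 on chromosome 4, with peaks of 637, 630 and 771 bp in the infant libraries. The next lay at 97894255 to 97894894, with 625, 599 and 609 bp. The widest region of Nfia found at all ages, at 97771875 to 97773568, had overlapping widths at the 3 ages. It had 1385, 1375 and 1485 bp in infant, 1460, 1374 and 1363 bp in young adult and 1281, 1498 and 1606 bp in mature adult libraries.

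Nfix, which is read from higher to lower coordinates, had infant regions on both sides of its midpoint, 2 below and 3 above. Those with the widest peaks lay at 84712372 to 84712982 on chromosome 8, with 607, 602 and 391 bp in the infant libraries, and at 84757421 to 84758385, with 964, 664 and 211 bp. The uneven widths show that these peaks varied strongly between infant libraries. The widest region found in all libraries, at 84707183 to 84708455, was narrower in all adult libraries. It had 1272, 956 and 862 bp in infant, 574, 591 and 358 bp in young adult and 607, 529 and 526 bp in mature adult libraries.

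At Nfib the only adult region of the family lay 27361 bp outside the lower gene end, at 82262641 to 82262983 on chromosome 4. Its peaks were narrow, with 215, 156 and 221 bp in mature adult and 231, 309 and 207 bp in young adult libraries, and with at least 50% of the region required to be covered it was no longer counted. Of its 3 infant regions, that at 82275978 to 82276388 had peaks of 273, 381 and 400 bp, and that at 82457324 to 82458007 peaks of 650, 319 and 464 bp. The widest region of the family spanned the upper end of Nfib, at 82505196 to 82507268. It had 2066, 2055 and 2027 bp in infant, 2006, 1977 and 1755 bp in young adult and 1743, 1982 and 2025 bp in mature adult libraries. Every mature adult library lay below every infant library there, though the closest of them nearly met.

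With 1 bp of overlap and all peaks counted, Nfic held neither infant nor adult regions. It had 1 infant region with at least 50% of the region covered, and 1 adult region with an equal number of widest peaks. Of its 18 regions 12 were found in all libraries, or 66.7%, against 32.4% of all regions, 28.8% of those at Nfia, 35.5% at Nfib and 42.3% at Nfix. Its widest region, at 81429569 to 81431012 on chromosome 10, had 1443, 1443 and 1428 bp in infant, 1383, 1404 and 1399 bp in young adult and 1320, 1352 and 1404 bp in mature adult libraries. No mature adult library reached the infant widths there.

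**Figure D3:**
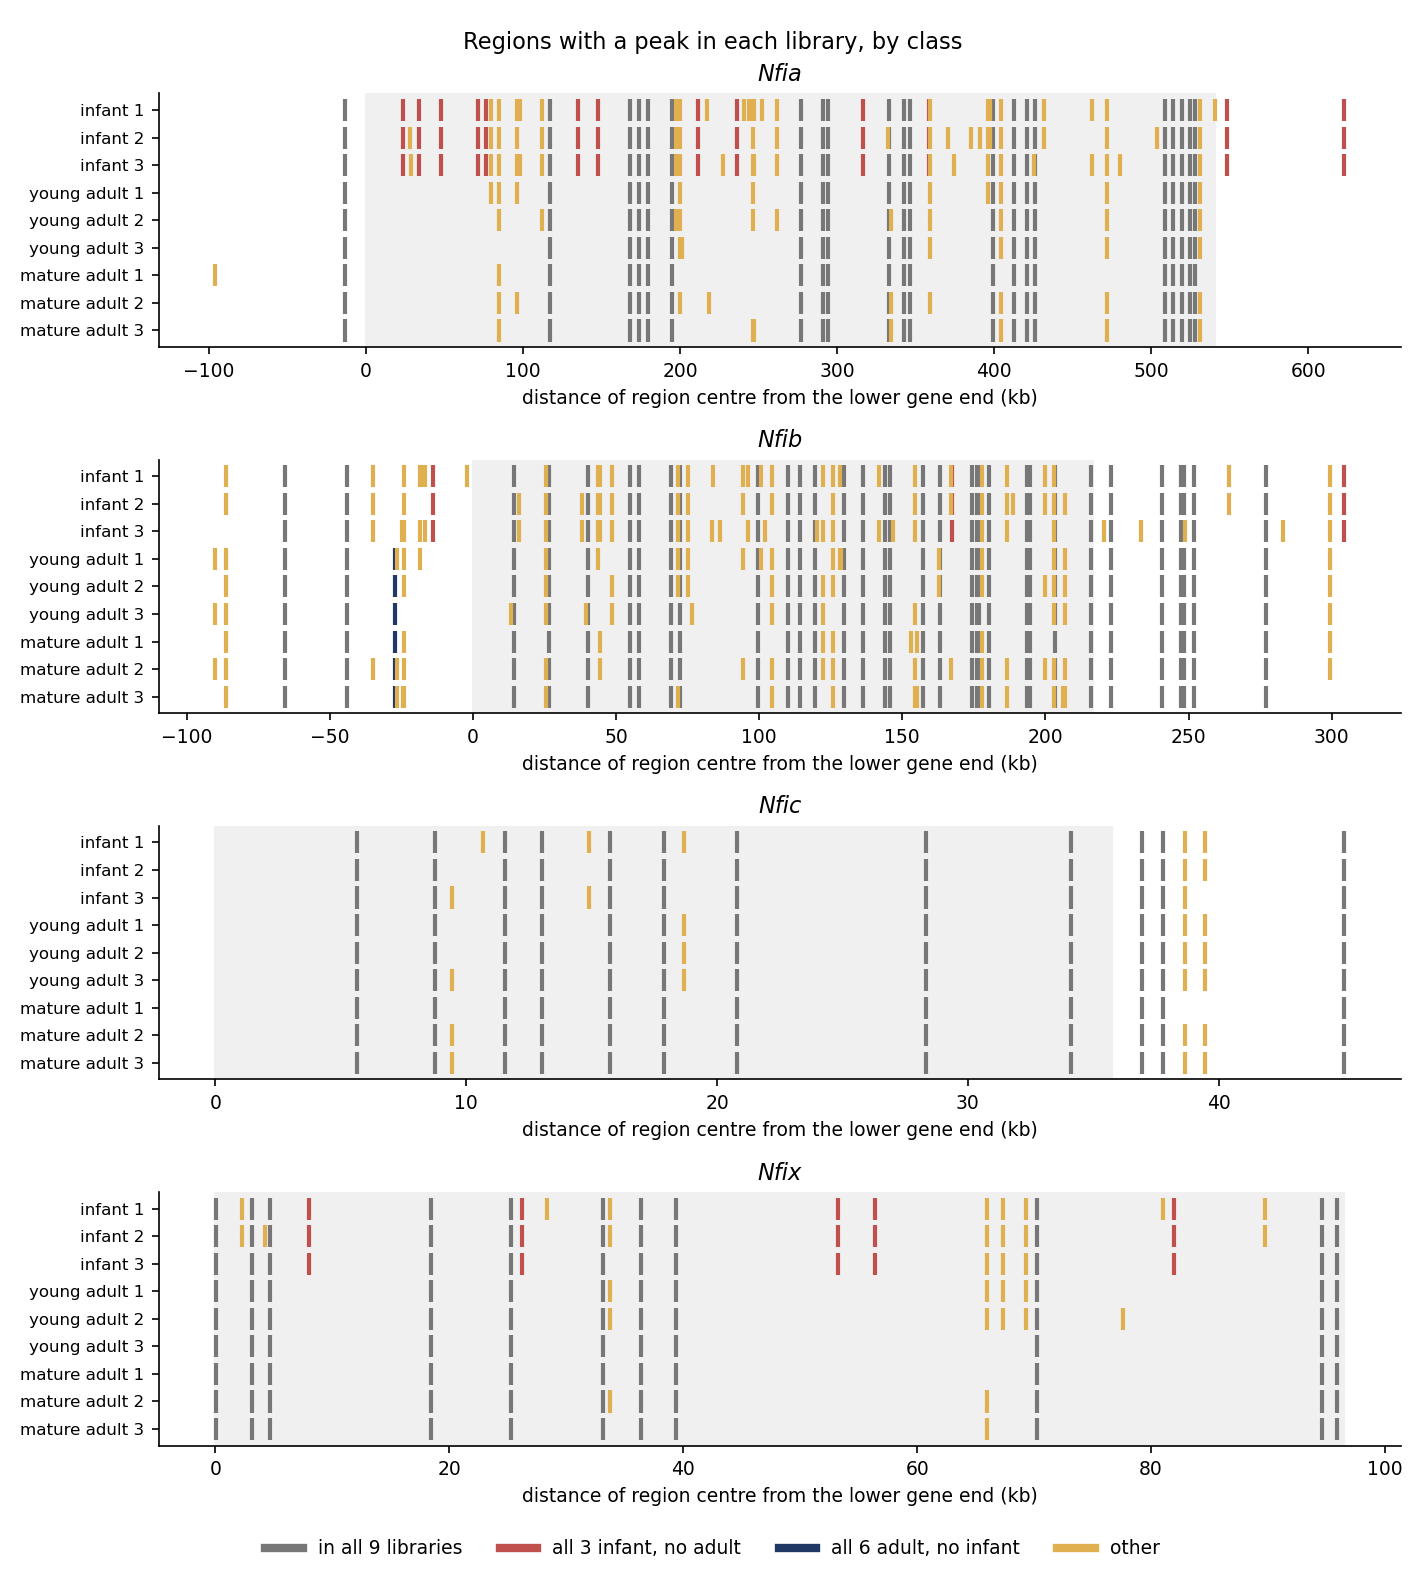
Merged regions at each NFI gene (1 panel a gene), drawn in each of the 9 libraries (rows) that had a peak there, against the distance of the region's centre from the lower gene end in kb. Grey shading is the gene body, tick width is not to scale, and colours give the class of the region. The 13 infant regions of Nfia lie mostly in the first part of the gene, and Nfic has none.

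In regions found in all 9 libraries the mean width of peaks at NFI genes was somewhat lower in adults, as it was over all such regions. The mean covered length per region at Nfia was 795 ± 17.7 bp in infant, 702 ± 28.1 bp in young adult and 691 ± 36.6 bp in mature adult libraries. At Nfic it was 613 ± 8.77 bp in mature adult and 677 ± 16.0 bp in infant libraries, and at Nfix 558 ± 32.7 bp in mature adult and 659 ± 68.9 bp in infant libraries. At these genes every mature adult library lay below every infant library. At Nfib the mature adult value of 597 ± 51.9 bp overlapped with the infant value of 639 ± 24.0 bp. Young adult libraries overlapped with infant ones at Nfic, with 639 ± 30.6 bp, and lay below them at Nfia, Nfib and Nfix. Over all 41144 such regions the means were 672 ± 37.1 bp in mature adult and 792 ± 23.9 bp in infant libraries. Taken over all peaks assigned to Nfix, the median width was instead higher in mature adult libraries. It was 558 ± 53.1 bp there and 396 ± 5.20 bp in infant libraries, without overlap, while Nfia, Nfib and Nfic overlapped between these ages. The share of all genes with such a difference was not counted.

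Region by region, 7 of 21 at Nfia, 12 of 33 at Nfib, 7 of 12 at Nfic and 2 of 11 at Nfix were narrower in every mature adult than in every infant library. Among all regions found in all libraries this held for 43.9%. Regions wider in every mature adult library numbered 2 at Nfia, 3 at Nfib, 2 at Nfic and 2 at Nfix, against 5.44% of all. Against young adult libraries 6, 9, 4 and 2 regions of Nfia, Nfib, Nfic and Nfix were narrower, where 32.7% of all regions were, and 0, 1, 2 and 1 were wider, where 5.58% were.

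**Figure D4:**
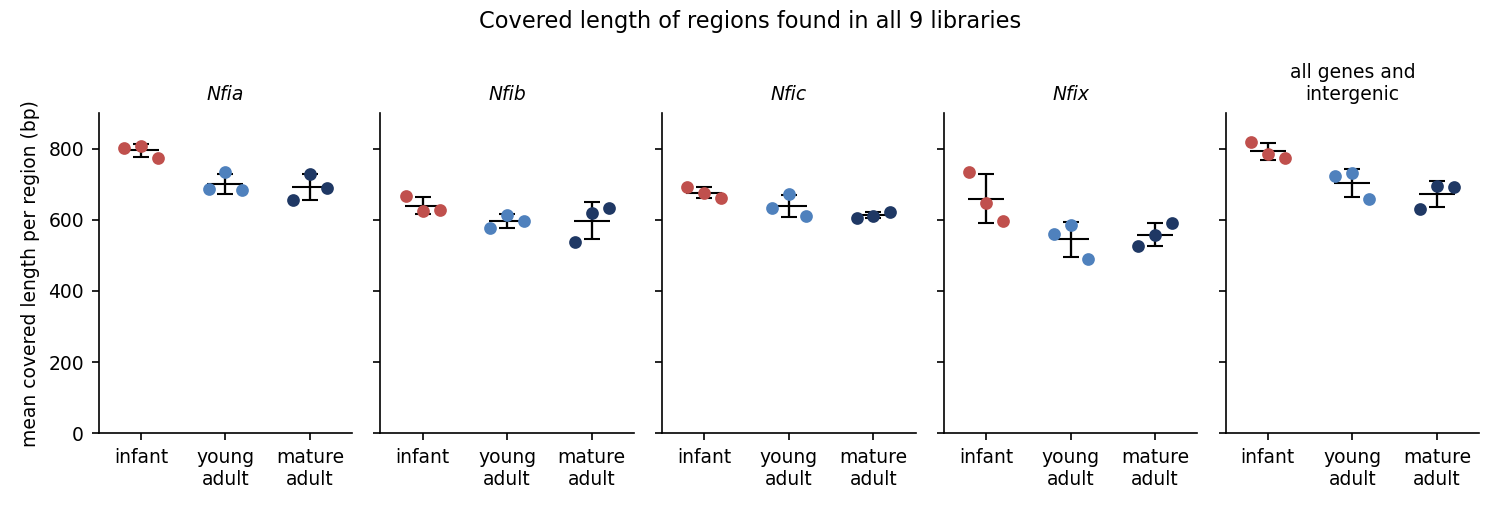
Mean covered length (bp, vertical axis) of the regions found in all 9 libraries, at each NFI gene and over all such regions, in the 3 libraries of each age. Points are libraries, and bars show mean and SD. Every mature adult library lies below every infant library at Nfia, Nfic and Nfix, while Nfib overlaps.

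Among genes averaging 10 peaks or more, those whose peak number per total followed an NFI gene most closely over the 9 libraries were ranked by Pearson's r of log2 values. All genes of 1 library share its depth and its list length, so r is a description. For Nfia they were Spata13 (r = 0.977), Pebp4 (r = 0.976) and Tead1 (r = 0.974). For Nfix they were Ulk4 (r = 0.978), Kcnh1 (r = 0.970) and Msra (r = 0.946). For Nfic they were Stard8 (r = 0.974), Hmbox1 (r = 0.963) and Pmp22 (r = 0.954), and for Nfib Frmd4b (r = 0.909), Aebp2 (r = 0.899) and Hs1bp3 (r = 0.897). Tead1, for example, had 29, 23 and 25 peaks in infant, 10, 11 and 8 in young adult and 6, 9 and 9 in mature adult libraries.

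A list of 30 genes reported in other tissues as bound or regulated by NFI proteins, or as their partner factors, was followed in the same libraries. Of these, 25 averaged 1 peak or more and were tested with limma on numbers scaled by library total, with p adjusted over all 14441 genes by the Benjamini-Hochberg method and a threshold of 0.05. Between mature adult and infant libraries 5 rose and 3 fell, against 30.0% of all genes higher and 13.8% lower. The median log2 change of the list was -0.24, against 0.14 over all genes. On unscaled numbers 1 rose and 10 fell, while over all genes the split was 208 higher and 4243 lower unscaled, against 4338 and 2000 scaled. With an equal number of widest peaks 1 rose and 3 fell, where over all genes 1209 were higher and 1059 lower. The list was chosen with earlier results of these data known. Its counts and the limma p-values of its genes therefore describe the listed genes and are no independent test of them.

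The genes of the list that fell numbered 3 of 25, a share near the 13.8% of all genes. Col1a2, a chain of collagen I, had 2, 2 and 3 peaks in mature adult and 13, 14 and 14 in infant libraries (log2 change -1.85 ± 0.155 SE, limma adjusted p = 0.000136). Ephb1, an ephrin receptor that NFI proteins regulate in cerebellar neurons, had 5, 4 and 4 peaks in mature adult and 19, 19 and 16 in infant libraries (log2 change -1.42 ± 0.157 SE, limma adjusted p = 0.000231). Hes1, a Notch target that Nfia represses in neural precursors, had 12, 15 and 14 peaks in mature adult and 31, 26 and 31 in infant libraries (log2 change -0.54 ± 0.108 SE, limma adjusted p = 0.00519).

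Among the rises, Nfatc4, a calcium-responsive factor that Nfix represses in fetal muscle, had 4, 4 and 3 peaks in mature adult and 2 in each infant library (log2 change 1.18 ± 0.113 SE, limma adjusted p = 0.000136), and it also rose on unscaled numbers (limma adjusted p = 0.00242). Cdkn1a, an inhibitor of the cell cycle, had 6, 6 and 5 peaks in mature adult and 4, 4 and 5 in infant libraries (limma adjusted p = 0.00139, and 0.0652 unscaled). Ski, a repressor of TGF-beta signalling, had 14, 17 and 14 in mature adult and 14, 14 and 15 in infant libraries (limma adjusted p = 0.000736, and 0.691 unscaled). Ckm, muscle creatine kinase, is counted among the 5 but had 1 peak in every library, so its scaled value restates the shorter adult lists and shows no change at the gene. Of these 5 rises, that of Nfatc4 alone passed the test on unscaled numbers. Its numbers were small and equal in all infant libraries, so its p-values rest on very little spread.

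Between young adult and infant libraries 4 genes of the list rose and 4 fell, against 25.6% of all genes higher and 9.35% lower, and 2 rose and 6 fell unscaled, where over all genes the split was 163 higher and 2525 lower, against 3700 and 1350 scaled. Col1a2 had 4, 4 and 5 peaks in young adult and 13, 14 and 14 in infant libraries (limma adjusted p = 0.000769), Ephb1 7, 7 and 5 against 19, 19 and 16 (limma adjusted p = 0.00155), and Hes1 16, 18 and 14 against 31, 26 and 31 (limma adjusted p = 0.0155). Dspp, a dentin protein gene that depends on Nfic in teeth, had 1, 2 and 0 against 6, 4 and 5 (limma adjusted p = 0.0357). Nfatc4 rose to 3 in each young adult library, against 2 in each infant library (limma adjusted p = 0.000846), and it also passed unscaled (limma adjusted p = 0.0163). Neither age had any spread in its number of peaks. Of the other rises, Ski passed unscaled (limma adjusted p = 0.0442), Cdkn1a did not (limma adjusted p = 0.0918), and Ckm again had 1 peak in every library. Between mature and young adult libraries limma called none of the 25, where by the same adjusted threshold 0.145% of all genes were higher and 0.699% lower. At an unadjusted p below 0.05 there were 4 of the 25, and the share of all genes at that looser threshold was not counted.

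Markers of other cells differed in peak number between the ages as well. Peaks at 12 genes of fibroblasts and mural cells numbered 88 to 92 in infant, 33 to 37 in young adult and 29 to 31 in mature adult libraries. Those at 6 epithelial genes numbered 25 to 30 in infant, 12 to 19 in young adult and 13 to 15 in mature adult libraries. All 10 endothelial marker genes held peaks in every library. Their peaks numbered 217 to 230 in infant, 188 to 206 in young adult and 171 to 201 in mature adult libraries. Per 10000 peaks the endothelial genes had 28.6 to 31.9 in mature adult and 24.3 to 25.4 in infant libraries. On that scale the fibroblast and mural genes had 4.75 to 4.85 in mature adult and 9.72 to 10.1 in infant libraries. The epithelial genes had 2.02 to 2.38 in mature adult and 2.81 to 3.17 in infant libraries. Peaks at 6 blood genes numbered 10 to 11 in infant, 8 to 14 in young adult and 8 to 9 in mature adult libraries, while per 10000 they had 1.25 to 1.51 in mature adult and 1.11 to 1.16 in infant libraries. Lum, Sftpc and Cd68 had no peak in any library, while Pdgfrb, a receptor of pericytes, had 1, 1 and 0 in mature adult and 5, 4 and 5 in infant libraries. Col1a2 is itself one of the fibroblast genes. The fibroblast numbers were lower in adults beside those of Nfia and Nfix, and the part of other cells in the NFI numbers was not tested.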

How the data were processed

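The authors deposited 1 list of peaks per library, which per the file headers gives chromosome, start and end without height, score or read number, so other per-peak measures are not used here. Cutadapt, Bowtie2 and Picard, with build mm10, are named per the submitters' processing notes. The peak caller is not given in the sources used here, and whether starts count from 0 or 1 is not stated, so positions may be off by 1 bp. Intervals repeated in a list were counted once. Genes came from RefSeq (GRCm38.p6, the build of mm10), without exons. For genes averaging 1 peak or more, log2(number + 0.5), scaled by library total, went into a limma 3.58.1 fit (R 4.3.3, mean-variance trend) over all 9 libraries. The fit was also run on simulated numbers, drawn at random around each gene's mean. Those do not copy genes whose few peaks hardly vary between libraries, so they cannot vouch for the p-values of such genes. Changes on this scale are understated for genes with few peaks. The members and lists were chosen with earlier results of these data known. Named regions were those with the largest mean width percentile, up to 2 per gene and class, with the widest region found in all libraries. Listed genes were named by the size of the change, up to 4 in each direction. The values of 1 listed gene that this rule names are not reported here. Depth per library is unknown, so no interval based on reads is given. Python 3.11.15 with pandas 2.3.3 was used for the rest.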

Additional observations from a re-analysis of the deposited data

How the results depend on the processing

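The peaks at the 4 NFI genes together were 57.0 fewer in mature adult and 49.0 fewer in young adult than in infant libraries (differences of -57 and -49). Leaving out each library in turn gave -62.17 to -50.17 and -51.67 to -45.17, and -13.17 to -1.17 for mature against young adult (main value -8). With each deposited row counted the differences were -85 and -71.67, with equal numbers of widest peaks -2.67 and -1, and per 10000 peaks -0.886 and -1.08, with 0.189 for mature against young adult. Infant regions numbered 10 and adult regions 4 with equal numbers of widest peaks, and adult regions 0 with at least 50% covered. Of all genes, 5050 were called between young adult and infant, 2354 with each row counted, 1394 with widest peaks and 2688 unscaled. Leaving out a library gave 4415 to 5371. Between mature adult and infant 6338 were called, 2268 with widest peaks (4451 unscaled), and 5372 to 6811 with a library left out. Between mature and young adult 122 were called, 557 without mature adult replicate 1 and young adult replicate 3 together, and 100 to 412 with a library left out (412 without young adult replicate 3, 187 without mature adult replicate 1 and 210 without mature adult replicate 2). Correlations of same-numbered libraries ran from -0.166 to 0.166, and those of differently numbered libraries from -0.225 to 0.284. Taken after centring on the few libraries of each age, they cannot settle whether replicate numbers pair the libraries. A replicate block gave 65 calls between the adult ages, with the other counts within 1.5 times. Listed genes called numbered 3 (young adult) and 4 (mature adult against infant) with widest peaks. They ran over 6 to 10, 7 to 11 and 0 to 2 with a library left out. The cause of these shifts was not tested.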

Other observations

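The same interval often filled several rows of a deposited list. At Nfia the lists held 1.74 ± 0.0510 rows per distinct peak in mature adult, 1.74 ± 0.0524 in young adult and 1.61 ± 0.104 in infant libraries, and at Nfix 1.29 ± 0.0419 in mature adult and 1.40 ± 0.112 in infant libraries. Nfic had the most rows per peak in infant libraries, 1.84 ± 0.140, against 1.38 ± 0.0700 at Nfib. What a repeated row stands for is not stated.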
